A study of Mus musculus with 21 samples.

Results

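The regions described here are 1356 stretches of chromatin that were called open in sorted cardiac progenitor cells after Sox7 was induced, and in no uninduced sample of the series. They were chosen from the 8 ATAC-seq peak lists, merged wherever peaks overlapped by 1 bp. A region was kept if it had a peak in both induced CPC lists, in none of the 4 uninduced lists, and in at most 1 of the 2 induced EPC lists. They make up 2.65% of the 51264 merged ATAC regions and 11.2% of the 12101 regions with no uninduced peak. Because ATAC peaks chose them, their presence, absence and scores in the ATAC lists are given as a description, with no test.

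All cells came from 1 mouse embryonic stem cell line, A2lox-Sox7-Myc, made from the parental E14Tg2a line, in which doxycycline switches on a Myc-tagged Sox7. The cells were grown as embryoid bodies, floating aggregates in which mesoderm forms, and were collected at day 4. Induced ATAC and ChIP samples had received doxycycline at 1 µg/ml for the last 24 h, and uninduced samples none. ATAC-seq, in which a transposase marks accessible DNA, was run on PDGFRalpha+FLK1+ cells (CPC, cardiac progenitors) and on PDGFRalpha-FLK1+ cells (EPC, endothelial progenitors). Each population had 2 uninduced and 2 induced samples. Anti-Myc ChIP-seq was run on unsorted embryoid bodies, with 4 uninduced samples, 4 induced samples and 1 untreated input. The sort markers come from the sample characteristics, while the growth protocol names a PDGFRalpha+FLK1- sort. Whether replicates came from separate cultures is not labelled, so each p-value reflects the spread of these samples alone, which may be technical.

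Sox7 belongs to the SOXF group of transcription factors, which bind DNA through an HMG box at short motifs around AACAAT. SOXF factors act in endothelial and haemogenic differentiation of mesoderm. PDGFRalpha+FLK1+ mesoderm is a source of cardiac progenitors, and loss of PDGFRalpha accompanies the endothelial and blood fate.

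The ATAC lists held 23068 to 30732 peaks each and the ChIP lists 772 to 2807, with 689 in the input list. The sequencing depth behind them is unknown. The sorted populations were compared at marker genes by counting peaks within 10 kb. Tal1, a regulator of blood and endothelial fate, had 5 to 6 peaks in the CPC lists and 7 to 8 in the EPC lists. Cdh5, which encodes VE-cadherin, had 0 to 4 in CPC and 4 to 5 in EPC. At Pdgfra, the gene of the sort marker, there were 2 to 3 peaks in CPC and 1 to 2 in EPC. Kdr, the gene of FLK1, had 1 to 2 in CPC and 2 to 3 in EPC. By count, not every marker separated the populations: Etv2 had 2 to 4 in CPC and 3 to 4 in EPC, and Gata4 had 2 to 4 in each. The highest Etv2 peak still scored 121.27 to 243.42 in the CPC lists and 300.05 to 1127.72 in the EPC lists. For Gata4 these scores overlapped, at 197.98 to 461.19 and 158.71 to 310.26. Gata1 had 0 to 1 in CPC and 1 to 2 in EPC. Its highest peak scored 305.41 and 295.75 in induced CPC, above the 76.5 and 120.63 in induced EPC. The cardiac genes Isl1 and Hand2 had peaks in every list of both populations.

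The sequences that the files allow to be shown are those of annotated promoters. Of the 1356 regions, 60 overlapped a RefSeq promoter window, which runs from 250 bases before to 50 bases after a gene's start on GRCm38.p6, and they touched 68 such windows. The 250 upstream bases of 4 of them are printed 5′ to 3′ along the gene, in capitals where a SOX motif (AACAAT or ACAATG, on either strand, overlapping in AACAATG) was found. 2900052N01Rik was chosen because its region is among the 10 highest-scoring, Bcar3 because its region scored highest among protein-coding promoters, and Neurog1 and Evx1 because they encode developmental transcription factors.
2900052N01Rik (chr9:46913353-46913602, + strand): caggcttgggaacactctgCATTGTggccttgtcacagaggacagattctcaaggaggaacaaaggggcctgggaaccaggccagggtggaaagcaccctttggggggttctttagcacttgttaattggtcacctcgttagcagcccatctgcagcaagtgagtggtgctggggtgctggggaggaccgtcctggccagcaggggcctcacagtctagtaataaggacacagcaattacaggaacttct
Bcar3 (chr3:122483319-122483568, + strand): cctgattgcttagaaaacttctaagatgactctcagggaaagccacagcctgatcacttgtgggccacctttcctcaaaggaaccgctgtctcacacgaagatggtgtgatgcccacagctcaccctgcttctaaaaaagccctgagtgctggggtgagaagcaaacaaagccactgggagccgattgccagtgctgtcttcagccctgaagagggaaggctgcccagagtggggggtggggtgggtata
Neurog1 (chr13:56252181-56252430, - strand): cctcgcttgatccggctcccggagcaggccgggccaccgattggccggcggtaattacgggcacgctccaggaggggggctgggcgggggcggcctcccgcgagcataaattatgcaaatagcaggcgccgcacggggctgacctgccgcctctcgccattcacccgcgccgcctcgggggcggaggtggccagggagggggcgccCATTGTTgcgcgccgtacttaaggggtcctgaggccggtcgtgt
Evx1 (chr6:52313248-52313497, + strand): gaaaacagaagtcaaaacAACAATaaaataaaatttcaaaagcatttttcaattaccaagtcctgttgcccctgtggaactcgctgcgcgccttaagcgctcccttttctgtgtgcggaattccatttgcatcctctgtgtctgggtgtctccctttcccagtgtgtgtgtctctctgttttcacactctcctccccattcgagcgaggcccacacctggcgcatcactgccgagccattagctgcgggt
The promoter of 2900052N01Rik, which is no protein-coding gene in the table, holds 1 match, and so does that of Evx1, a homeobox gene of the primitive streak. In Neurog1, a proneural basic helix-loop-helix gene, the capitals mark 2 overlapping matches. None was found in Bcar3, which encodes an adaptor of integrin signalling. The whole upstream window lay in the open region for 2900052N01Rik, Bcar3 and Neurog1, and 160 of its 250 bases did for Evx1. Over the 68 windows, 11 (16.2%) held a SOX motif in the 250 upstream bases, against 5334 of all 32851 promoters (16.2%). The GATA motif AGATAA was found in 3 of the 68 (4.41%) against 9.99% of all promoters, the TEAD motif GGAATG in 7 (10.3%) against 12.6%, the ETS motif ACCGGAA in 1 (1.47%) against 2.89%, and the E-box CAGCTG in 12 (17.6%) against 13.0%. A match is a string of letters and not a measured binding site.

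The peak score is the authors' value from the peak caller, that is -10 log10(p). It was used to rank peaks within a list, to set score limits, and for medians and a correlation across lists. The new CPC-alone regions were weak peaks in both lists that defined them. Their scores ran from 50.02 to 603.87 in induced CPC replicate 1, with a median of 80.0, and from 50.02 to 479.32 in replicate 2, with a median of 77.3. The median of all peaks was 141.9 and 137.57 in these lists, and the median region stood at percentile 27.4 and 26.0. Only 98 regions (7.23%) lay above the median peak of both lists, and 244 (18.0%) scored 100 or more in both. At the other end, 467 (34.4%) scored under 60 in at least 1 list, close to the lowest score of about 50 that the ATAC lists contain. Across the 1356 regions the log10 scores of the 2 lists correlated with r = 0.575, a description over regions that share their libraries.

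**Figure D1:**
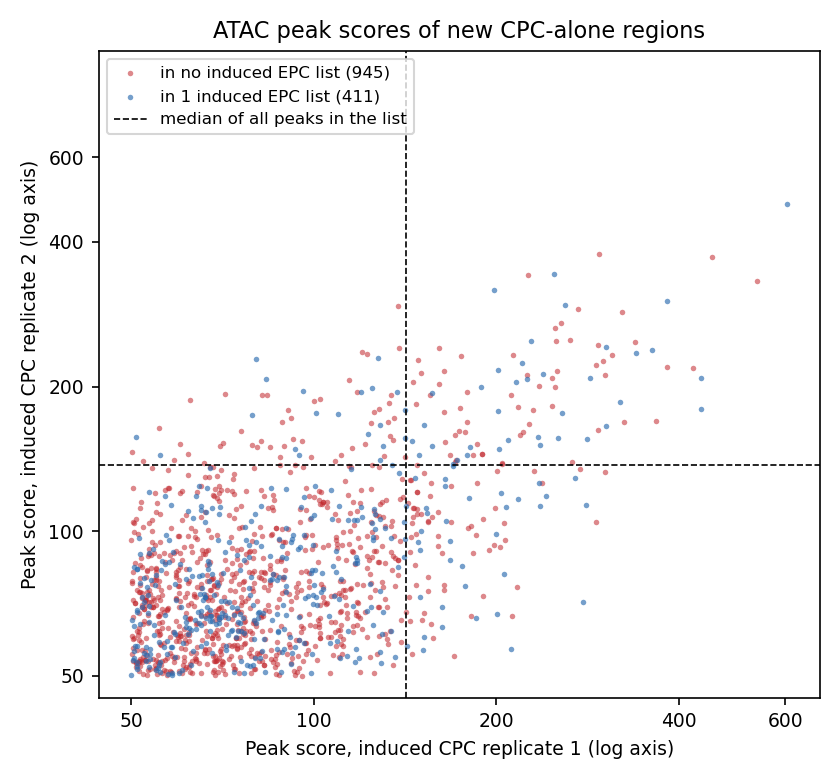
ATAC peak scores of the 1356 new CPC-alone regions in induced CPC replicate 1 (x axis) and replicate 2 (y axis), both log axes without units, with 1 point per region. Red points (945) had no peak in an induced EPC list, blue points (411) had a peak in 1 of them, and dashed lines mark the median of all peaks in each list, 141.9 and 137.57. Most points crowd in the lower left corner, and 98 lie above both lines.

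The 1356 regions sit among neighbours that fell just outside the rule. Of the regions with no uninduced peak, 2624 were called in induced CPC replicate 1 and not 2, and 2221 in replicate 2 and not 1, against 1949 in both. Within those 1949, 945 had no induced EPC peak, 411 had one in a single EPC list, and 593 had one in both EPC lists and are called gained in both below. Of the 411, 165 had their EPC peak in replicate 1, with a median score of 63.4, and 246 in replicate 2, with a median of 70.8. Those 411 scored a median of 83.1 and 78.4 in the CPC lists, and the 945 scored 79.0 and 77.1. The regions gained in both stood higher in the same CPC lists, with medians of 108 and 98.0, and the 13096 regions called in all 8 lists stood at 364 and 319. A region absent from a list can therefore have been just under the score limit there.

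The reverse rule, a peak in both uninduced CPC lists, none in the 4 induced lists and at most 1 uninduced EPC list, gave 866 regions against the 1356. That balance turned with list length. When all lists were shortened to the 23068 best peaks, the length of the shortest (uninduced CPC replicate 2), there were 890 new CPC-alone regions and 1104 under the reverse rule.

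The highest-ranked region, by the lower of its percentile ranks in the 2 lists, lay inside Tafa2 (chr10:123678018-123679250), which encodes a secreted chemokine-like protein. It scored 603.87 and 479.32 in the CPC lists, and 156.22 in induced EPC replicate 1. The next lay 11.0 kb from the olfactory receptor gene Olfr891 (453.73 and 371.41) and in a stretch of chromosome 15 with no protein-coding gene within 50 kb (chr15:8865643-8866696, 539.82 and 332.48). Others of the first 10 lay inside Tmem200a (382.25 and 301.42), inside Gpr39, a zinc-sensing receptor gene (338.89 and 247.99), inside Lrmda (264.97 and 250.58) and 1.87 kb from 4930474N05Rik (322.36 and 286.6). The remaining 3 had no protein-coding gene within 50 kb, 2 of them on chromosome 9 and 1 on chromosome 13, and one of those is the region over the start of 2900052N01Rik. Of these 10, 8 had no peak in an induced EPC list, and Tmem200a had one in replicate 2 with a score of 78.28. An anti-Myc peak was listed at 2 of the 10, each in induced ChIP replicate 3 alone.

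The new CPC-alone regions lay away from gene starts and ends. Only 89 of 1356 (6.56%, exact 95% interval 5.30 to 8.02) were within 1 kb of a gene boundary, against 26.7% of all ATAC regions and 64.3% of the regions called in all 8 lists. The share was 7.44% for the 1802 regions of the mirror rule (both induced EPC lists, no uninduced list, at most 1 induced CPC list, called EPC-alone below), 5.06% for regions gained in both, and 8.78% for all regions with no uninduced peak. These intervals cover counting error only, and no test was made, since regions are not replicates. The position was thus close to that of the other new regions. It differed from that of the 997 regions gained in CPC that had been open in an uninduced EPC list, of which 15.8% were within 1 kb of a boundary (exact 95% interval 13.6 to 18.3).

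Of the 1356 regions, 599 (44.2%) overlapped a gene body, 414 (30.5%) lay outside within 50 kb of a gene, and 343 (25.3%) had no protein-coding gene within 50 kb, against 16.0% of all ATAC regions without one. The median distance to the nearest gene boundary was 31.9 kb, against 26.8 kb for EPC-alone regions and 10.8 kb for all ATAC regions. Promoter windows were overlapped by 4.42% of the regions and by 21.8% of all ATAC regions. Their median width was 855.5 bp (421 to 2162), against 861 bp for EPC-alone regions and 1478 bp for regions in all 8 lists. They were scattered along the chromosomes, with a median of 600 kb to the nearest other one and 100 (7.37%) within 50 kb of another. All 21 chromosomes held some, from 1.73% of the regions of chromosome 10 to 4.35% of the 46 regions of the Y chromosome, where there were 2.

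**Figure D2:**
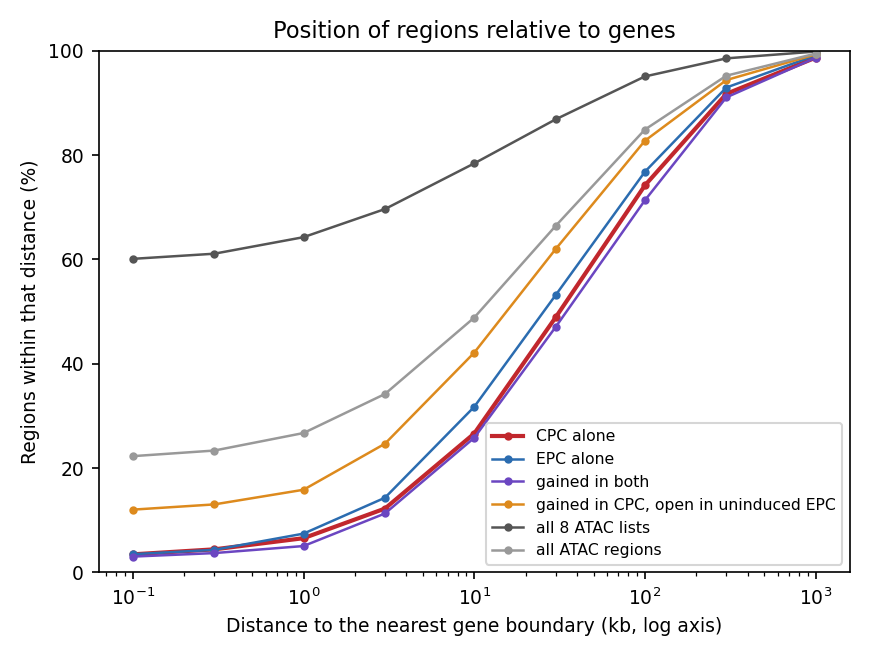
Share of regions (y axis, percent) that lie within a given distance of the nearest protein-coding gene boundary (x axis, kb, log axis), for 6 sets of ATAC regions. The red line of CPC-alone regions passes 6.56% at 1 kb, beside the lines of EPC-alone regions and regions gained in both, and below that of all ATAC regions (26.7%).

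The highest-ranked regions near a gene boundary included those at Kel, the Kell blood group gene (chr6:41702908-41704139, scores 319.94 and 185.35), Prg3, an eosinophil granule gene (216.94 and 181.58), Clec2i, a C-type lectin gene (137.2 and 195.25), and Bcat1, an enzyme of branched-chain amino acid metabolism (164.93 and 128.14). Of these 4, all but the one at Prg3 also had a peak in 1 induced EPC list.

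Anti-Myc ChIP was not used to choose the regions, and it was compared between libraries. That comparison is not free of the choice, since the rule left out chromatin open before induction. Regions called in all 8 ATAC lists held 34.7% to 43.5% of peaks in uninduced lists and 23.1% to 39.1% in induced lists. In the 4 induced ChIP lists a peak overlapped 12, 16, 64 and 7 of the 1356 regions (0.885%, 1.18%, 4.72% and 0.516%). Over all ATAC regions these lists had 2.15%, 1.90%, 3.98% and 1.60%, which is more in lists 1, 2 and 4 and less in list 3. In uninduced lists 1 to 4 it overlapped 1, 2, 4 and 2 (0.0737%, 0.147%, 0.295% and 0.147%), and in the input list 3 (0.221%). Over all ATAC regions the uninduced lists had 1.23%, 1.31%, 1.33% and 1.12%. Every induced list was thus above every uninduced list, both on the 1356 regions and over all ATAC regions. On the 1356, replicate 3, the longest list, stood far above the other induced lists. Of the 772 peak starts in uninduced list 4, 585 (75.8%) were also in uninduced list 2, while no other pair of ChIP or input lists shared over 1.04%. They differed by less than any other pair, could be one library listed again, and were counted as 1 sample with their mean.

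The share with a peak was 1.83% ± 1.95 in induced libraries (SD, n = 4) and 0.172% ± 0.113 in uninduced libraries (SD, n = 3). The difference of 1.65 percentage points had a two-sided exact permutation p of 0.0571 (adjusted p = 0.0571 over 3 measures), which does not pass 0.05 and is the smallest that 4 against 3 libraries allow. Without induced replicate 3 the difference was 0.688 percentage points (exact permutation p = 0.100, the smallest that the libraries left allow). With all ChIP lists at equal length the difference was 0.381. With all 4 uninduced lists counted, the near-identical lists 2 and 4 separately, it was 1.66, with an exact permutation p of 0.0286. Because the lists differ in length, the share was also taken over each list's own peaks. Of the ChIP peaks, 1.15% ± 0.758 lay in one of the 1356 regions in induced libraries (SD, n = 4) and 0.238% ± 0.135 in uninduced libraries (SD, n = 3). This difference of 0.912 percentage points had the same exact permutation p of 0.0571 (adjusted p = 0.0571), and was 0.535 without induced replicate 3.

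ChIP peaks were less frequent on CPC-alone than on EPC-alone regions in each induced list. EPC-alone regions had a peak in 3.44%, 1.78%, 10.6% and 1.05% of cases in induced lists 1 to 4, and in 0.111% to 0.222% in the uninduced lists. The share on CPC-alone regions minus that on EPC-alone regions was -2.39 percentage points ± 2.51 in induced libraries (SD, n = 4) and 0.00559 ± 0.113 in uninduced libraries (SD, n = 3). The difference of -2.40 points between induced and uninduced had an exact permutation p of 0.0571 (adjusted p = 0.0571), again the smallest possible and not past 0.05, and it was -1.24 without induced replicate 3 and -0.447 with ChIP lists of equal length. The gap was seen in 4 of 4 induced libraries, from -5.88 in replicate 3 to -0.538 in replicate 4. The EPC-alone regions had median ATAC scores of 78.7 and 87.8 in their own lists, beside 80.0 and 77.3 for CPC-alone regions in theirs. Both sets were also limited to regions that scored 100 or more in both of their lists. There the shares in induced lists 1 to 4 were 2.05%, 2.87%, 9.84% and 2.05% of 244 CPC-alone regions and 7.29%, 3.77%, 20.9% and 2.51% of 398 EPC-alone regions. ChIP was run on unsorted cells, so the share of CPC in that material was not measured.

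**Figure D3:**
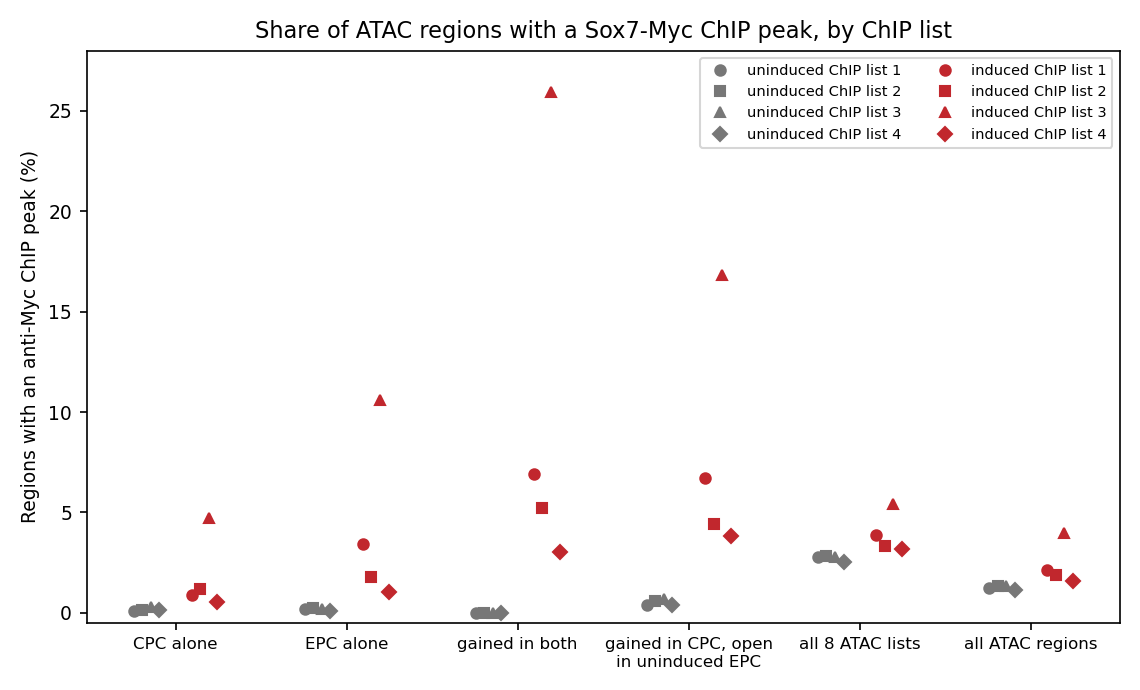
Share of regions with an anti-Myc ChIP peak (y axis, percent) in each of the 4 uninduced (grey) and 4 induced (red) ChIP lists, for 6 sets of ATAC regions along the x axis, with 1 point per list. CPC-alone regions reached 0.516% to 4.72% in induced lists, EPC-alone regions 1.05% to 10.6% and regions gained in both 3.04% to 26.0%, with induced list 3 the highest point of every set.

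Counted over all induced lists, 71 of the 1356 regions (5.24%, exact 95% interval 4.11 to 6.56) had a peak in at least 1, close to the 4.75% of all ATAC regions. The share was 11.8% for EPC-alone regions and 27.8% for regions gained in both. Of the 71, 55 had a peak in 1 list only, and in 49 of those it was replicate 3. Without that list 22 regions (1.62%) were left, against 2.87% of all ATAC regions, 4.50% of EPC-alone regions and 10.3% of regions gained in both. A peak in 2 or more induced lists was found at 16 regions (1.18%), against 2.27% of all ATAC regions. A peak in any uninduced list was found at 4 regions (0.295%), against 1.69% of all ATAC regions. The 71 regions had higher ATAC scores than the other 1285, with medians of 102 and 98.4 against 79.3 and 76.7.

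The distance from ChIP peak centres to the new regions is given as a description, without the same count for other ATAC regions. Within 1 kb of a region's centre lay 12, 15, 65 and 6 peak centres of induced lists 1 to 4, and 1, 2, 3 and 2 of the uninduced lists. At 1 to 10 kb there were 21, 27, 43 and 13 in the induced lists, a mean of 2.33, 3, 4.78 and 1.44 for each stretch as long as the central one. For uninduced lists 1 to 4 that mean was 0.889, 1, 1.78 and 0.667. The central count was thus above the flanking mean in every ChIP list, uninduced lists included.

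An induced Sox7 site, a peak in at least 3 of the 4 induced lists and in none of the uninduced lists, lay on 7 of the 1356 regions (0.516%), against 0.414% of all ATAC regions, 1.17% of EPC-alone regions and 3.71% of regions gained in both. With each induced list left out in turn and 2 of the other 3 required, the count was 7 to 13. The matching share of all ATAC regions was not counted, so this range cannot be read as a trait of the 1356 regions.

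The region inside Tiam2 (chr17:3406831-3407744) was the only one of the 7 with a peak in all 4 induced lists. Tiam2 encodes an exchange factor that activates the GTPase Rac. The ChIP scores there were 137.12, 100.13, 126.69 and 84.66, and the ATAC scores 202.17 and 148.43 in CPC and 62.33 in induced EPC replicate 2. A site 4.42 kb from Mdfic, which encodes a regulator of transcription and of mechanosensitive channels (chr6:15715156-15716146), had ChIP scores of 52.42, 256.63 and 50.51 in induced lists 1, 3 and 4 and ATAC scores of 274.78 and 134.82. A site 1.91 kb from Asb4, a ubiquitin ligase adaptor of vascular development (chr6:5380243-5381473), had 94.59, 136.09 and 114.52 in lists 2, 3 and 4. Its ATAC scores were 203.91 and 119.96 in CPC and 75.56 in induced EPC replicate 1.

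The other sites lay inside Exoc4, a subunit of the exocyst that tethers secretory vesicles (chr6:33842774-33843807), inside Itpkb, a kinase of inositol trisphosphate (chr1:180376567-180377398), inside Tgm3, a transglutaminase (chr2:130043705-130044560), and in a stretch of chromosome 8 with no gene within 50 kb (chr8:26840472-26841527). The chromosome 8 site scored 270.19 and 129.06 in the CPC lists and 111.58 in induced EPC replicate 2. The other 4 of the 7, at Mdfic, Exoc4, Itpkb and Tgm3, had no peak in an induced EPC list. Induced list 3 was among the lists with a peak at all 7. None of their genes is in the cardiac or endothelial list. At 3 further regions a peak in 3 or more induced lists came with an uninduced peak. These lay inside Plcb4, a phospholipase C gene, inside Usp17le and 14.2 kb from the defensin gene Defa21. Usp17le and Defa21 belong to families of near-identical copies, so the placement of reads between copies is uncertain.

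Tiam2 was also the gene with the most new CPC-alone regions, 5. Besides the site, they lay 39.2 kb before the gene (scores 58.63 and 90.58), and inside it at chr17:3360087-3360911 (53.28 and 64.46), chr17:3374741-3375856 (247.35 and 208.44) and chr17:3450862-3451559 (65.26 and 63.82). Some of them lay beside chromatin that was open before induction. The site was 0.463 kb from a peak called in uninduced CPC replicate 1 and in both uninduced EPC lists, and the region before the gene was 0.263 kb from a peak called in both uninduced CPC lists. The other 3 lay 6.51 to 21.2 kb from the nearest uninduced peak. Over all 1356 regions, 86 (6.34%) lay within 1 kb of an uninduced peak, against 8.55% of EPC-alone regions and 6.75% of regions gained in both. Shank2 and Psd3 followed with 4 each. Shank2, a scaffold gene of excitatory synapses, had scores of 52.72 to 70.37 in replicate 1 and 54.01 to 134.04 in replicate 2. Psd3, an exchange factor gene for ARF6, had scores of 56.07 to 91.23 and 60.15 to 82.99, with an induced EPC peak at 3 of its 4 regions.

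**Figure D4:**
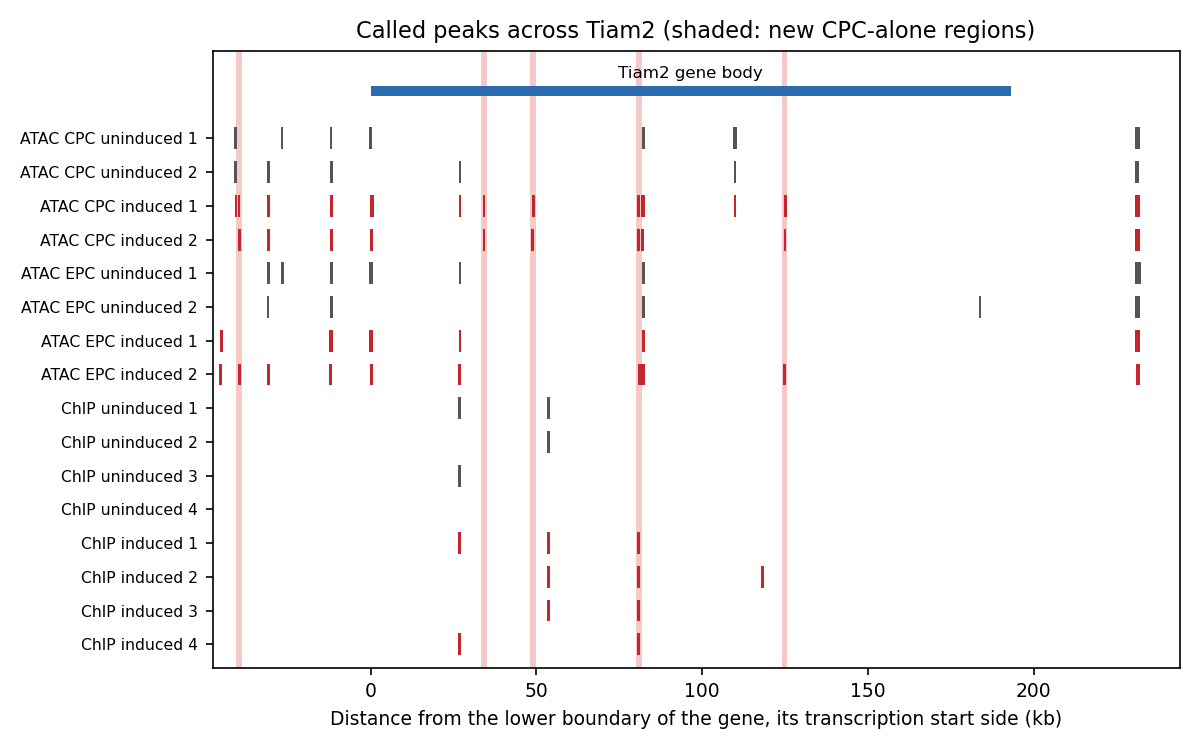
Called peaks across Tiam2 in the 8 ATAC lists and the 8 ChIP lists, 1 line per list, by distance from the gene's start (x axis, kb), with red for induced and grey for uninduced lists. Shading marks the 5 CPC-alone regions, and the 1 about 81 kb from the start is the one with a ChIP peak in all 4 induced lists and in no uninduced list.

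The authors' deposited list of CPC regions open only with doxycycline holds 3093 regions. Of these, 1362 (44.0%) overlapped one of the 1356, and all 1356 (100%) were on it, while none was on the authors' deposited EPC list. Those lists describe the same ATAC samples as the rule, so these overlaps follow largely from the choice and are no independent support. The authors' deposited Sox7 list of 666 regions overlapped 13 of the 1356 (0.959% of them and 1.95% of that list), against 0.942% of all ATAC regions.

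Regions were assigned to all protein-coding genes they overlapped, or else to the nearest within 50 kb. In this way 933 of the 16803 genes with any ATAC region had a new CPC-alone region, or 5.55%, and 7.46% had an EPC-alone region. Of the 933, 860 had a single region, 60 had 2 and 10 had 3. The genes were long, with a median of 68.1 kb against 58.0 kb for genes with an EPC-alone region and 23.1 kb for all genes with an ATAC region. Of the 933 genes, 165 also had an EPC-alone region, which is 17.7% of them and 13.2% of the 1254 genes with an EPC-alone region. The gene lists below were chosen with earlier results of these data known, so their counts are a description. Long genes and genes with many regions have more chances to hold one. Length and region number are given beside the counts of the cardiac and guidance lists. In the other 14 lists the median length ran from 3.99 to 55.7 kb and the median number of regions per gene from 2 to 5.5.

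Cardiac genes had a new CPC-alone region in 8 of 24 cases (33.3%), against 5.55% of all genes. They had an EPC-alone region in 2 of 24 (8.33%), against 7.46% of all genes. A region gained in both was assigned to 2 of 24, Isl1 and Tbx20, against 415 of all 16803 genes. By region, 8 of the 132 ATAC regions of the list (6.06%) were CPC-alone, against 2.35% over all genes. The genes had a median length of 25.9 kb and 5 regions each, against 2 for all genes. Most of the regions were distant. With assignment limited to 10 kb, 3 genes were left, and with overlapped genes alone, 1.

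Of the 8, 3 are transcription factor genes, 2 are signal genes and 3 are muscle genes. Isl1, a marker of the second heart field, had its region 37.99 kb away (chr13:116259263-116260283), with scores of 175.14 and 231.21. Tbx20, a T-box gene of heart chambers, had one 13.2 kb away (chr9:24787509-24788429, 134.07 and 102.57). Hand2, needed for the right ventricle, had one 6.18 kb away (chr8:57313964-57314807, 137.89 and 84.19), with a weak peak of 51.42 in induced EPC replicate 1. The signal genes Fgf10 and Wnt2, both expressed in or beside the second heart field, had regions 40.04 and 13.63 kb away, scoring 63.83 and 55.74 at Fgf10 and 54.72 and 120.27 at Wnt2. Of the muscle genes, Actc1, the cardiac actin gene, had one 13.9 kb away (186.19 and 126.24). Ryr2, the cardiac calcium release channel gene, held one inside the gene (80.08 and 54.63), and Ttn, the titin gene, had one 1.04 kb away (51.99 and 72.48). Hand2 was the only one of the 8 with a peak in an induced EPC list at its region. None of the 8 regions had an anti-Myc peak in any ChIP list.

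Early mesoderm genes had a region in 3 of 17 cases (17.6%, against 5.55% of all genes), Mesp1 and Pax3 among them. An EPC-alone region was found in 0 of 17, against 7.46% of all genes. On 17 genes both counts are small. Mesp1, a master gene of cardiac mesoderm, had one 2.04 kb away (chr7:79788977-79790201, 117.81 and 194.58). Pax3, a gene of somites and neural crest, held one inside (128.27 and 86.45). No ChIP peak was listed at these 2 regions.

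Guidance genes had the largest share of the lists, 9 of 19 (47.4%, against 5.55% of all genes). An EPC-alone region was found in 5 of 19 guidance genes (26.3%, against 7.46%). These genes direct axons, vessels and migrating cells through ligands and their receptors. They are long, with a median of 197 kb and 8 ATAC regions each, and by region 15 of their 171 (8.77%) were CPC-alone, against 2.35% over all genes. Among the ligands, Sema3a held 3, the strongest inside the gene (chr5:13289331-13290278, 161.17 and 241.04). Slit2 had 2, at scores of 73.03 and 61.95, and 98.8 and 81.93, both with a peak in induced EPC replicate 2. Sema3d had 2, and Slit3 and Efnb2, the ephrin-B2 gene, had 1 each. Among the receptors, Robo1 and Epha4 had 2 each inside the gene, and Robo2 and Epha7 had 1 each. With only overlapped genes, 5 of the 9 were left. No ChIP peak was listed at any of the 15 regions. Efnb2 and Robo1 also had a region gained in both, as 3 of the 19 guidance genes did.

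Endothelial genes had a region in 2 of 30 cases (6.67%), close to the 5.55% of all genes. They had an EPC-alone region in 4, Flt4, Ets1, Vwf and Nrp2 (13.3%, against 7.46% of all genes). A region gained in both was assigned to 5 of 30, Flt1 among them, against 415 of all 16803 genes. Flt1, a VEGF receptor gene, held 2 CPC-alone regions (chr5:147661575-147662465, 111.05 and 144.03, and chr5:147722411-147723249, 56.91 and 86.34). Sox17, a SOXF relative of Sox7, had one 33.3 kb away (123.19 and 87.06). Blood genes had 1 of 19, inside Runx1, the gene of a haematopoietic regulator (77.41 and 120.97). SOX genes had 4 of 19 in the CPC-alone set and 4 of 19 in the EPC-alone set. For CPC-alone regions these were Sox4, with a region 6.14 kb away (148.26 and 120.49), Sox5, with one inside the gene (147.79 and 120.51), Sox13 and Sox17, and for EPC-alone regions Sox1, Sox5, Sox13 and Sox15. Sox5 and Sox13 also had regions gained in both. Endoderm and basement membrane genes had 3 of 21 (Sox17, Cxcr4 and Nid1), against 4 of 21 with an EPC-alone region.

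**Figure D5:**
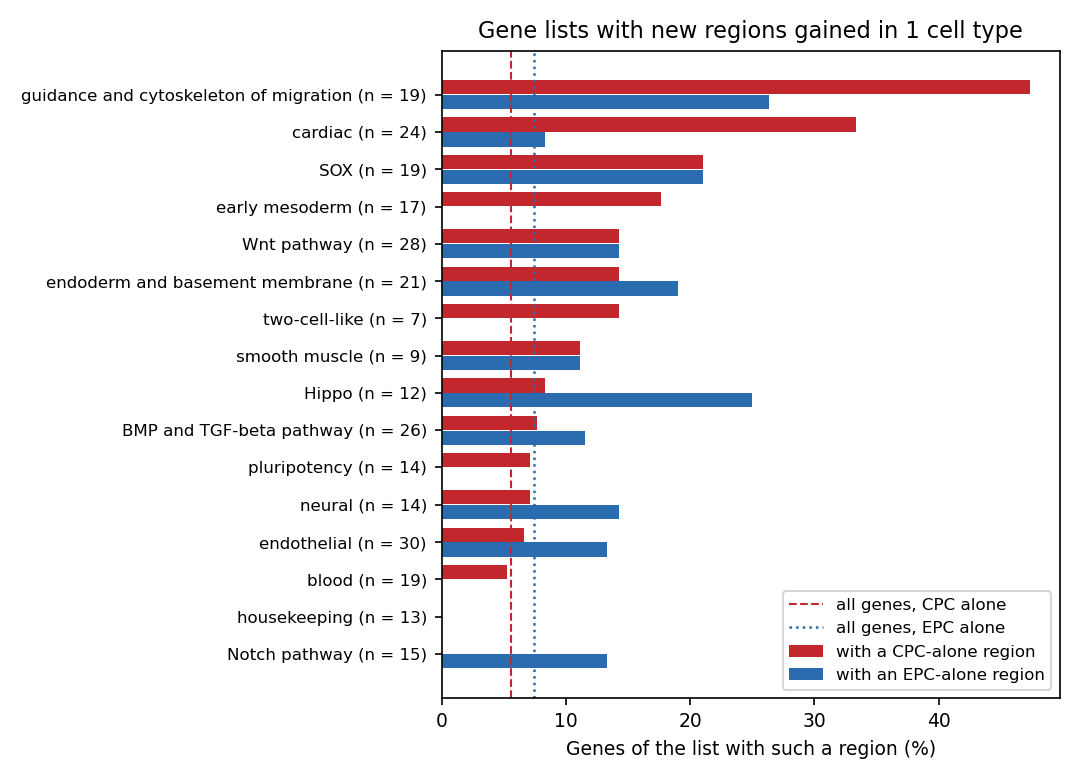
Share of the genes of each list (y axis) that have a new CPC-alone region (red bars) or an EPC-alone region (blue bars), in percent of list genes with any ATAC region (x axis, n beside each list), with dashed and dotted lines for all genes (5.55% and 7.46%). The red bars of the guidance (47.4%) and cardiac (33.3%) lists are the longest, and the Notch and housekeeping lists have none.

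Wnt pathway genes had 4 of 28 in each set. For CPC-alone regions these were the ligand Wnt2, the receptor Ror2, the secreted inhibitor Sfrp1 and the nuclear effector Tcf7l2. The Ror2 region, inside the gene (chr13:53233262-53234680), was the strongest of them (282.28 and 155.82), and had a ChIP peak of 74.12 in induced replicate 3 alone. BMP and TGF-beta genes had 2 of 26, the ligands Bmp2 (17.8 kb, 67.34 and 86.39) and Bmp6 (5.07 kb, 84.12 and 111.77). Notch pathway genes had 0 of 15, with 2 of 15 having an EPC-alone region. Acta2, the smooth muscle actin gene, held a region inside the gene with scores of 188.99 and 199.16 (chr19:34252271-34253180) and was 1 of 9 smooth muscle genes. The neural (Neurog1), pluripotency (Prdm14), Hippo (Tead1) and 2-cell-like (Usp17le) lists had 1 gene each, of 14, 14, 12 and 7, and the housekeeping list had 0 of 13. Over all genes the shares were 5.55% with a CPC-alone and 7.46% with an EPC-alone region. No difference between these lists, or between CPC-alone and EPC-alone counts, was tested.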

How the data were processed

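ATAC-seq (8 lists) and anti-Myc ChIP-seq (8 lists and 1 input list) were used as deposited peak lists on GRCm38 (mm10), 1 per library. Per the submitters' processing notes, the tools named, with no role given, include Bowtie2, SAMtools, bedtools, Trimmomatic and MACS 1.4. The score of each peak is as deposited by the authors, in the MACS 1.4 format minus 10 times the log10 of its p-value. The lists hold no read counts, so depth is unknown. The 4 RNA-seq samples were not analysed here.

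Peaks were merged where they overlapped by 1 bp, and a region had a peak of a list if any peak of it lay inside. A ChIP peak counted with an overlap of 1 bp. Genes were 21887 protein-coding genes of a RefSeq table of GRCm38.p6. Exons, introns and sequences of the regions themselves were not used here. Intervals of shares are exact (Clopper-Pearson, 95%) and include counting error alone. The 3 ChIP measures were compared over libraries with two-sided exact permutation tests (smaller tail doubled) and Benjamini-Hochberg adjustment, in Python 3.11.15 with numpy 2.4.6, pandas 2.3.3 and scipy 1.17.1. The region rule was checked on simulated lists. Alternatives covered the score limit, list length, overlap, gene distance and leaving out each library.

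The members and gene lists were chosen with earlier results of these data known. Named are the 10 regions highest by the lower of their percentile ranks, those on an induced ChIP site (up to 15), those assigned to a gene of the 16 lists, genes with 4 or more, the 5 highest within 1 kb of a gene boundary and those whose promoter is printed. The regions at Plcb4 and Defa21 were named after their values were seen. Some regions that the rule would name are not reported here.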

Additional observations from a re-analysis of the deposited data

Results flagged for a closer look

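Induced ChIP replicate 3 stood apart from the other 3 induced lists in 3 of 7 checks of groups of 4 libraries. Each check was on the gap of the highest or lowest library relative to the group's range, where chance gives about 1 in 20. The 3 flags rest on the same list and are not independent, so their number cannot be set against that rate. Induced replicate 3 held 2807 peaks, against 1061 to 1851 in the other induced lists. It had a peak on 4.72% of the new CPC-alone regions, where the other induced lists had 0.516% to 1.18% (gap of 0.842 of the range). Of its own peaks, 2.28% lay in a CPC-alone region, against 0.660% to 0.864% (gap of 0.874). On regions gained in both cell types it had a peak at 26.0%, against 3.04% to 6.91% (gap of 0.831). With all ChIP lists at equal length, the difference between induced and uninduced libraries was 0.381 percentage points for the share of CPC-alone regions and 0.669 for the share of ChIP peaks, against 1.65 and 0.912 as deposited.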

How the results depend on the processing

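The number of new CPC-alone regions depended on the score limit and on list length: it was 244 with a score of 100 or more in both CPC lists and 890 with lists of equal length. With 1 ATAC library left out it ranged from 1111 to 3696, with 3376 and 3696 without induced CPC replicates 1 and 2, where a single list then decides presence. The 3 ChIP differences kept their direction in all settings run. With all 4 uninduced lists counted they were 1.66, 0.914 and -2.39 percentage points, each with an exact permutation p of 0.0286, past 0.05. A smaller p is possible there only because uninduced lists 2 and 4, which could be one library, are counted separately. With 1 ChIP library left out the differences ranged from 0.688 to 2.09, from 0.535 to 1.08 and from -3.02 to -1.24. Their adjusted exact permutation p was 0.0571 to 0.133, each the smallest that the libraries left allow. With ChIP lists of equal length they were 0.381, 0.669 and -0.447 (adjusted exact permutation p of 0.171 to 0.229). Limited to regions of score 100 or more they were 3.93, 0.441 and -4.59, and limited to regions with no induced EPC peak 1.33, 0.484 and -1.78. As a replicate block, over the 4 same-numbered pairs, they were 1.66, 0.914 and -2.39 with an exact sign-flip p of 0.125, the smallest that 4 pairs allow. Uninduced lists 2 and 4 were again counted separately. Whether a shared number marks a pair of samples is not known. To look at this, peak presence over 4548 merged ChIP regions was taken in each list as the deviation from its group's mean. Between induced and uninduced lists these deviations correlated at -0.0975 to 0.0590 for the same number and -0.0618 to 0.0910 for others. Of the 4 induced lists, 2 correlated best with their own number. Such weak correlations over 4 pairs cannot settle it. Genes with a region numbered 552 when only overlapped genes counted, and the share near a gene boundary was 16.6% with a limit of 5 kb. Depth is unknown, so an absent peak may reflect fewer reads. Alternatives that leave out an induced ChIP list for the count of sites and of regions with any peak were chosen after seeing the data.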
